A study of Homo sapiens with 4 samples.

Results

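A set of 5 long noncoding RNAs was chosen by symbol, without a rule on their values but with earlier results of these data known. It held MALAT1 and NEAT1, which are retained in the nucleus, and MEG3, KCNQ1OT1 and H19, which are transcribed from imprinted loci. Of these 5, 4 were measured, out of 33538 genes listed in each library, and H19 was not analysed here. Single-cell RNA sequencing counted them as UMIs, which are distinct captured molecules, in HCEC 1CT, a line of human colon epithelium that TERT and CDK4 render immortal. The line was transduced with an shRNA against APC, the tumour suppressor that holds β-catenin in check (shAPC), or with a scrambled shRNA (shScr), kept in puromycin, and harvested 3 or 7 days later. The labels call the virus retroviral and the study's methods call it lentiviral. There was 1 library per group, so 4 libraries in all, and no difference between them has a replicate check or a test. All intervals below are exact 95% intervals that cover counting error alone, and they say nothing of how far 2 cultures treated alike would differ. Those of levels and ratios take each UMI as independent, so they also leave out the spread of an RNA over cells.

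MALAT1 accumulates in nuclear speckles, the bodies where splicing factors are stored, and NEAT1 is the scaffold on which paraspeckles assemble. MEG3 is expressed from the maternal copy of the DLK1-DIO3 domain. KCNQ1OT1 is expressed from the paternal copy, antisense to KCNQ1, and represses neighbouring genes of that copy, among them CDKN1C, which encodes an inhibitor of cyclin-dependent kinases. The imprinted status of these loci cannot be read from UMI counts, which do not separate the parental copies.

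The reads were counted from the 3′ side of polyadenylated RNA, and oligo-dT may also bind a run of A encoded within an RNA. The longest run of A in the exons of each RNA is therefore shown. The A run is in capitals, with 24 bases on either side, written 5′ to 3′ along the transcript as DNA, on the GRCh38 genome with GENCODE 44 gene models. Only the transcript strand was searched, for runs of at least 12 A.
MALAT1: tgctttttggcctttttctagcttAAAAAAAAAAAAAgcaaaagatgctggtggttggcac
NEAT1: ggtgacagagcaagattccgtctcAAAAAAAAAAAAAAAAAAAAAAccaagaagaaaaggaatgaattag
MEG3: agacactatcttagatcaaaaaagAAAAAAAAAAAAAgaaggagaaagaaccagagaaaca
KCNQ1OT1: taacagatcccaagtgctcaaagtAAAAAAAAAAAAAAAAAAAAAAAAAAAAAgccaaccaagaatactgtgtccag

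The printed windows lie at chr11:65506074-65506134 (MALAT1, plus strand), chr11:65440819-65440888 (NEAT1, plus strand), chr14:100850587-100850647 (MEG3, plus strand) and chr11:2610693-2610769 (KCNQ1OT1, minus strand), each around an exonic run. MALAT1 (chr11:65497640-65508073, plus strand) had 1 such run, of 13 bases, which lies at chr11:65506098-65506110 and ends 6 bases before an annotated small RNA. MALAT1 is known to end in such an encoded A-rich tract after a tRNA-like small RNA is cut off its 3′ side. NEAT1 (chr11:65422774-65445540, plus strand) had 3 runs in 22767 exonic bases, the longest of 22 bases, and MEG3 (chr14:100779410-100861031, plus strand) had 1 of 13 bases. KCNQ1OT1 (chr11:2597308-2700003, minus strand) had 10 runs in 92625 exonic bases, the longest of 29 bases, and lies wholly inside KCNQ1 on the opposite strand. Such runs were common: 32.9% of 3281 annotated transcripts within 25% of the exonic length of MALAT1 held one, as did 62.4% of 157 for NEAT1, 62.1% of 145 for MEG3 and 1 of 7 for KCNQ1OT1. The matrices do not show at which site a molecule was captured, so UMI counts of different genes were not compared as levels.

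The libraries differed in depth and in cells lost to the limits. A barcode was kept as a cell with 200 or more genes, 500 or more UMIs and a mitochondrial share under 5%, which left 1116 cells of shScr day 3, 788 of shAPC day 3, 2600 of shScr day 7 and 1478 of shAPC day 7. The median kept cell had 35109, 49686, 1330 and 21030 UMIs in that order, and 1402 of the 2600 shScr day 7 cells had under 2000. The kept cells held 28451455 to 39797418 UMIs per library. Between 1 and 19 kept barcodes were shared by any pair of libraries. Levels are given as CPM, counts per 1000000 kept UMIs. APC stood at 16.1 CPM in shScr and 5.52 in shAPC at day 3, and at 19.1 and 6.61 at day 7. Defining markers of the labelled epithelial cell type were low or absent: the epithelial marker list summed to 25.01 to 49.3 CPM, with CDX2 at 0 in all 4 libraries and CDH1 at 0 in 3, whereas 6 mesenchymal markers summed to 8779 to 11340 CPM. Leukocyte markers summed to 17.4 to 29.7 CPM, nearly all of it CD68, and endothelial markers to under 0.3 CPM.

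MALAT1 was among the most counted genes of every library. Its level was 11819 CPM in shScr day 3, 11371 in shAPC day 3, 11049 in shScr day 7 and 13925 in shAPC day 7, which placed it 6th, 5th, 9th and 4th by UMIs. The shAPC day 7 library stood above the others, whose levels lay close together. At day 3 the log2 ratio of shAPC to shScr was -0.06 (-0.06 to -0.05), and at day 7 it was 0.33 (0.33 to 0.34), a 1.26-fold higher level with shAPC, which turned to -0.17 when each cell was thinned to 2000 UMIs. From day 3 to day 7 the log2 ratio was -0.10 in shScr and 0.29 in shAPC.

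NEAT1, the paraspeckle scaffold, was set apart by 1 low library in CPM. It measured 3251 CPM in shScr day 3, 3131 in shAPC day 3, 2213 in shScr day 7 and 3072 in shAPC day 7. The shScr day 7 library lay below the others, which were within a narrow range. With TMM scaling in place of total UMIs, the log2 ratio to shScr day 3 was -0.43 for shAPC day 3 and -0.62 for shScr day 7. The log2 ratio of shAPC to shScr was -0.05 (-0.07 to -0.04) at day 3, which turned to 0.062 when the CPM of single cells were averaged, and 0.47 (0.46 to 0.49) at day 7. From day 3 to day 7 it was -0.55 (-0.57 to -0.54) in shScr and -0.03 (-0.04 to -0.01) in shAPC. In CPM the day 7 difference between the shRNAs thus went with a lower NEAT1 level in the scrambled library.

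MEG3, the maternally expressed RNA of the DLK1-DIO3 domain, measured 330 CPM in shScr day 3, 286 in shAPC day 3, 390 in shScr day 7 and 453 in shAPC day 7. Both day 7 libraries were above both day 3 libraries. The log2 ratio of shAPC to shScr was -0.20 (-0.24 to -0.17) for day 3 libraries and 0.22 (0.18 to 0.25) for day 7 libraries, which turned to -0.31 in thinned cells. From day 3 to day 7 it was 0.24 (0.21 to 0.28) in shScr and 0.66 (0.62 to 0.70) in shAPC.

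KCNQ1OT1, the paternally expressed antisense RNA, had the widest range of the 4 as a ratio between libraries. It measured 19.05 CPM in shScr day 3, 23.4 in shAPC day 3, 27.5 in shScr day 7 and 57.4 in shAPC day 7, from 758, 819, 858 and 1633 UMIs. The shAPC day 7 library stood clear of the rest, and the others rested on similar numbers of UMIs. At day 3 the log2 ratio of shAPC to shScr was 0.30 (0.15 to 0.44). At day 7 it was 1.06 (0.94 to 1.18), a 2.09-fold higher level. From day 3 to day 7 it was 0.53 (0.39 to 0.67) in shScr and 1.29 (1.17 to 1.41) in shAPC, the latter 2.45-fold.

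**Figure D1:**
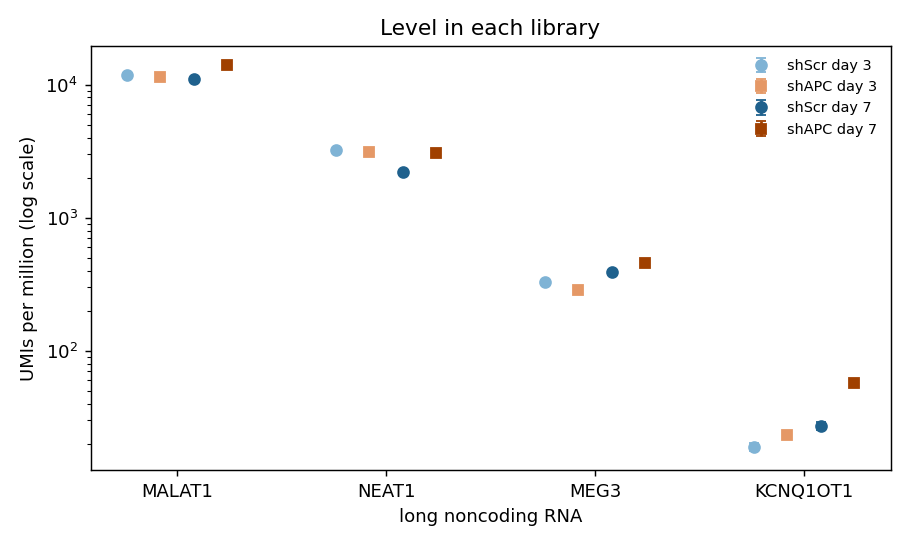
CPM on a log axis for the 4 measured RNAs, with 1 point per library and exact 95% counting intervals, most of them smaller than the point. KCNQ1OT1 in the shAPC day 7 library, at 57.4 CPM, stands above the other 3 libraries at 19.05 to 27.5 CPM, and NEAT1 in shScr day 7 lies below the rest.

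To set these ratios against other genes, every gene with at least 20 CPM in 1 of the 2 libraries was compared on log2 of CPM plus a pseudocount of 1, and called when it differed at least 2-fold. At day 3, 4.29% of 5175 genes were called between shAPC and shScr, and none of the 4 RNAs was. At day 7, 2.56% of 4573 genes were called, and KCNQ1OT1 was the 1 of 4. Between the days, 1.12% of 4556 genes were called in shScr with none of the 4, and 5.83% of 5176 in shAPC with KCNQ1OT1 again the 1 of 4. The call of KCNQ1OT1 at day 7 sat near the threshold, since it was lost in cells of over 30000 UMIs, where the log2 ratio was 0.97 (0.80 to 1.15), and with a pseudocount of 5 CPM. The call from day 3 to day 7 in shAPC was lost in cells of over 30000 UMIs as well, at 0.99 (0.84 to 1.14), and in thinned cells, at 0.74 (0.22 to 1.28).

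The median of all genes was itself off 0, so each RNA was also placed against it. At day 3 the median log2 ratio of shAPC to shScr over all genes was 0.28, and relative to it MALAT1 was at -0.33, NEAT1 at -0.33, MEG3 at -0.48 and KCNQ1OT1 at 0.01. At day 7 the median was -0.10, and relative to it the same RNAs were at 0.43, 0.57, 0.31 and 1.13. Of all genes tested at day 7, 90.9% had a ratio at or below that of MALAT1, 95.7% at or below NEAT1, 84.0% at or below MEG3 and 99.3% at or below KCNQ1OT1. At day 3 these shares were 16.8%, 16.9%, 8.52% and 51.7%. TMM scaling shifted the day 3 median by -0.40, and the called genes, 200 higher and 22 lower with shAPC, then became 83 higher and 67 lower. Under it KCNQ1OT1 at day 3 was at -0.08 (-0.22 to 0.06) in place of 0.30. MALAT1, NEAT1 and MEG3 at day 3 were then at -0.44, -0.43 and -0.58.

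From day 3 to day 7 in shAPC the median over all genes was -0.34, and relative to it MALAT1 was at 0.63, NEAT1 at 0.31, MEG3 at 1.00 and KCNQ1OT1 at 1.59. In shScr the median was 0.05, and relative to it they were at -0.15, -0.61, 0.19 and 0.45. NEAT1 in shAPC was therefore at -0.03 before and at 0.31 after reference to the median, and with TMM scaling at 0.28. The calls of all genes in shAPC split into 3 higher and 299 lower at day 7, and into 28 higher and 126 lower under TMM. These comparisons share libraries with those between the shRNAs, so the 4 sets of ratios are not separate evidence.

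**Figure D2:**
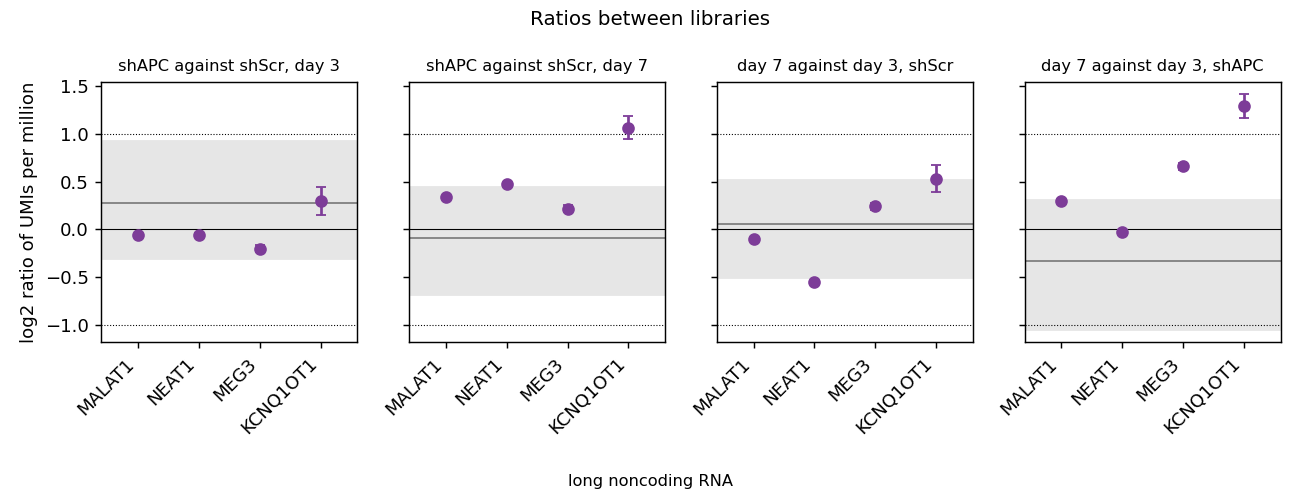
Log2 ratios of the 4 RNAs in the 4 comparisons, with exact 95% counting intervals. Grey bands span the 5th to 95th percentile of all genes tested, grey lines their median, and dotted lines a 2-fold difference. KCNQ1OT1 lies past 2-fold at day 7 and from day 3 to day 7 in shAPC, at 1.06 and 1.29.

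The difference of KCNQ1OT1 at day 7 was present in cells of over 10000 UMIs and on both sides of the mitochondrial limit. In cells of 10000 to 30000 UMIs it was at 69.8 CPM in shAPC and 31.9 in shScr, and in cells of over 30000 UMIs at 47.6 and 24.3. Among barcodes removed by the mitochondrial limit it was at 68.0 CPM in shAPC (1551 barcodes) and 26.4 in shScr (1052 barcodes), a log2 ratio of 1.36 (1.19 to 1.53). Without the 31 and 64 cells in which MALAT1 took at least 10% of the UMIs it was 1.09 (0.97 to 1.22). In cells of 2000 to 10000 UMIs the 2 libraries were at 22.2 CPM (12.9 to 35.5) and 21.3 CPM (14.2 to 30.8), from 17 and 28 UMIs, and no difference was detectable at this depth. Cells under 2000 UMIs were at 115 CPM (82.5 to 157) in shAPC and 40.9 CPM (29.6 to 55.1) in shScr, from 40 and 43 UMIs.

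MALAT1 and NEAT1 at day 7 were also higher with shAPC in cells of over 10000 UMIs and in removed barcodes. In cells of over 30000 UMIs the log2 ratio was 0.49 (0.48 to 0.50) for MALAT1 and 0.24 (0.22 to 0.26) for NEAT1, and in cells of 10000 to 30000 UMIs 0.39 (0.38 to 0.40) and 0.72 (0.69 to 0.74). Among removed barcodes it was 0.28 (0.27 to 0.29) and 0.53 (0.51 to 0.55). For MEG3 the ratio was 0.18 (0.13 to 0.23) in the deepest cells and 0.00 (-0.04 to 0.05) among removed barcodes, where both libraries were near 500 CPM. In cells of 2000 to 10000 UMIs the ratio had the opposite sign, at -1.49 (-1.52 to -1.45) for MALAT1, -0.60 (-0.71 to -0.49) for NEAT1 and -1.21 for MEG3, where both bounds were below 0. Cells under 2000 UMIs were again higher with shAPC. There MALAT1 was at 35532 CPM in shAPC and 21105 in shScr, NEAT1 at 4501 and 1690, and MEG3 at 883 and 433. With every cell of at least 2000 UMIs thinned to that number, so that each counts alike, MALAT1 was at -0.17 (-0.20 to -0.15) and MEG3 at -0.31 (-0.44 to -0.19), while NEAT1 stayed at 0.39 (0.34 to 0.44) and KCNQ1OT1 at 1.12 (0.65 to 1.59). The sign of the day 7 ratio of MALAT1 and MEG3 thus differed between summed UMIs and these thinned cells. When the CPM of all kept cells were averaged, it stayed above 0, at 0.090 for MALAT1 and 0.35 for MEG3.

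At day 3 the shAPC cells of 10000 to 30000 UMIs were poor in these RNAs. In 37 shAPC cells of 10000 to 30000 UMIs, MALAT1 was at 4725 CPM, NEAT1 at 617, MEG3 at 80.9 and KCNQ1OT1 at 1.42, the last from 1 UMI. In 158 shScr cells of the same depth they were at 9010, 2340, 247 and 20.3 CPM. At 2000 to 10000 UMIs per cell, NEAT1 was at 1185 CPM in shAPC day 3 and 2063 in shScr day 3, and MEG3 at 266 and 411. KCNQ1OT1 there rested on 4 and 10 UMIs, with overlapping intervals. In cells of 2000 to 10000 UMIs MALAT1 was at 4801 CPM in shAPC day 3 and 25851 in shScr day 3, and at day 7 at 8747 and 24503. As summed UMIs, both shAPC libraries were thus below both shScr libraries at this depth. Few cells weighed on these sums. In shScr day 3 the cell highest in MALAT1, of 4875 UMIs, held 3102 of the 15614 MALAT1 UMIs of this depth range. The 24 cells of that library with at least 10% MALAT1 held 18199, whereas all its cells under 2000 UMIs held 6510. The part of such cells in this difference was not tested. In cells under 2000 UMIs MALAT1 was at 21105 to 35532 CPM in the 4 libraries, each above that library's level in cells of over 30000 UMIs (9457 to 13283). NEAT1 in these shallowest cells was at 4037 CPM in shAPC day 3 and 2620 in shScr day 3. Cells of over 30000 UMIs held most of the UMIs at day 3, and there the log2 ratios of shAPC to shScr were -0.02 for MALAT1, -0.06 for NEAT1, -0.21 for MEG3 and 0.34 for KCNQ1OT1.

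**Figure D3:**
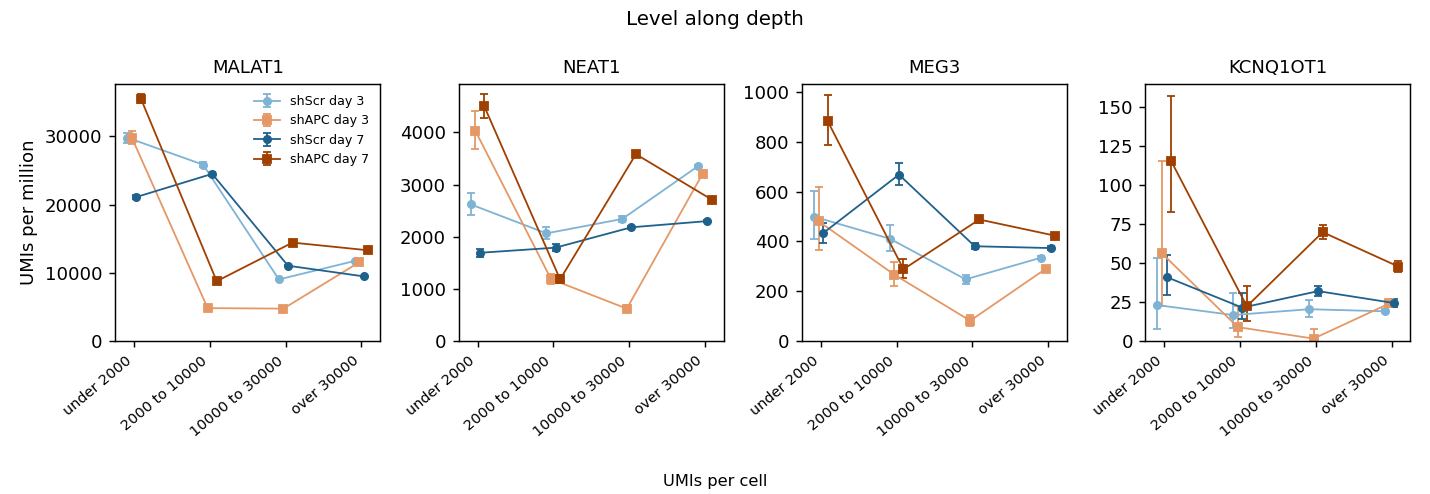
CPM against UMIs per cell, in 4 depth ranges, for each RNA and library, with exact 95% counting intervals. In the shAPC day 3 cells of 10000 to 30000 UMIs all 4 RNAs are low, and MALAT1 in cells under 2000 UMIs is at 21105 CPM or more in every library.

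Mitochondrial share moved with these RNAs as well. NEAT1 was higher in removed than in kept barcodes in all 4 libraries, at 3543 against 3251 CPM in shScr day 3, 3774 against 3131 in shAPC day 3, 2922 against 2213 in shScr day 7 and 4222 against 3072 in shAPC day 7. MALAT1 was lower in removed barcodes in all 4, but over non-mitochondrial UMIs alone it was slightly higher in those of shScr day 7 (11613 against 11447 per 1000000) and lower in the other libraries. Removed barcodes were not alike, since those of 20% or more mitochondrial UMIs had MALAT1 at 21866 CPM in shScr day 3 and those of 5 to 10% had 10182. MEG3 was higher in removed barcodes in all 4, at 353 to 501 CPM against 286 to 453. KCNQ1OT1 was higher in removed barcodes in 3 libraries and at 26.4 against 27.5 CPM, with overlapping intervals, in shScr day 7. The limit removed more barcodes than it kept in shAPC day 7, and its part in the levels of the kept cells was not tested.

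MALAT1 ranged widely over cells. To compare cells at 1 depth, each was thinned at random to 2000 UMIs, which left out 217 shallower cells of shScr day 3, 115 of shAPC day 3, 1402 of shScr day 7 and 391 of shAPC day 7. The median thinned cell then had 15, 15, 17 and 23 MALAT1 UMIs, and the highest had 1265, 898, 1019 and 1033. The Fano factor, the variance over the mean, which is near 1 for counting noise alone and grows with the mean, was 263, 73.5, 222 and 61.2. It was higher in the 2 shScr libraries than in the 2 shAPC libraries. At 5000 UMIs per cell it was 54.6, 44.7, 105 and 29.3, the same order between the shRNAs at each day with a narrower gap at day 3.

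Cells in which MALAT1 took at least 10% of the UMIs were counted over all kept cells, so also among those under 2000 UMIs that thinning left out. There were 24 of 1116 in shScr day 3 (2.15%, 1.38 to 3.18), 12 of 788 in shAPC day 3 (1.52%, 0.789 to 2.64), 64 of 2600 in shScr day 7 (2.46%, 1.90 to 3.13) and 31 of 1478 in shAPC day 7 (2.10%, 1.43 to 2.96). The intervals of all 4 overlap. These cells had a median of 1273 to 1917 UMIs and of 0.742 to 1.28% mitochondrial UMIs, under the medians of 2.75 to 3.75% of all kept cells. The other RNAs were high in them too: NEAT1 was at 16745 to 49623 CPM, MEG3 at 5413 to 9090 and KCNQ1OT1 at 213 to 591. The KCNQ1OT1 values rest on few UMIs. Leaving these cells out took its UMIs from 758 to 747 in shScr day 3 and from 819 to 808 in shAPC day 3. At day 7 they went from 858 to 824 in shScr and from 1633 to 1605 in shAPC. In the remaining cells NEAT1 was at 2158 to 3224 CPM, MEG3 at 282 to 441 and KCNQ1OT1 at 18.8 to 56.5. In the shScr day 7 library these cells held 8.77% of all MALAT1 UMIs.

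At the other end, some kept cells had no MALAT1 UMI at all. There were 13 in shScr day 3, 43 in shAPC day 3, 13 in shScr day 7 and 4 in shAPC day 7. In shAPC day 3, 24 of the 43 had at least 2000 UMIs, against 4, 0 and 1 in the other libraries, and the deepest had 29014. MT2A, a metallothionein, was the most counted gene of these cells in all 4 libraries. Genes were not ranked in the cells with MALAT1, so MT2A is not shown to set the cells without it apart. The median mitochondrial share of the cells without MALAT1 was 1.55 to 1.91% against 2.75 to 3.76% in the cells with MALAT1.

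By Fano factor NEAT1 and MEG3 were lower than MALAT1, whereas MEG3, the least counted of them, had the highest share of its UMIs in the top cells. The Fano factor at 2000 UMIs was 8.44 to 13.0 for NEAT1, and 4.17 to 9.16 for MEG3. For KCNQ1OT1, at 0.0389 to 0.107 UMIs per thinned cell, it cannot tell spread from counting noise. The 10% of cells with the most UMIs of the RNA held 29.9 to 51.7% of the MALAT1 UMIs, 31.8 to 39.6% of the NEAT1 UMIs and 46.4 to 60.7% of the MEG3 UMIs, and the MEG3 share was above that of MALAT1 in each library. Counting noise alone raises this share where UMIs are few, and MEG3 had 0.615 to 1.07 per thinned cell against 21.8 to 30.9 for MALAT1. At 5000 UMIs per cell the shares were 33.9 to 37.2% for MEG3 and 23.4 to 32.3% for MALAT1. They do not separate concentration from low counts.

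The share of thinned cells with a KCNQ1OT1 UMI was also highest in shAPC day 7. It was 3.78% (2.63 to 5.25) in shScr day 3, 5.65% (4.03 to 7.67) in shAPC day 3, 4.42% (3.33 to 5.75) in shScr day 7 and 9.84% (8.14 to 11.8) in shAPC day 7. The interval of shAPC day 7 lies above the others, which overlap. Without thinning the shares were 35.5%, 44.04%, 18.6% and 44.7%, an order that carries the depth of each library. MALAT1 was found in 93.0%, 90.3%, 96.7% and 97.0% of thinned cells and NEAT1 in 82.4%, 78.5%, 77.0% and 83.6%. MEG3 was found in 37.9%, 33.4%, 42.8% and 46.6%. Unthinned, MALAT1 was found in 94.5 to 99.7% of cells, NEAT1 in 50.7 to 79.3% and MEG3 in 40.9 to 68.4%. A cell type that should lack these RNAs was not at hand in a culture of 1 line, so the UMIs that free RNA adds to a cell could not be measured.

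NEAT1 differed along the cell cycle in all 4 libraries. Each cell of at least 2000 UMIs was assigned G1, S or G2M from 43 S and 54 G2M genes. NEAT1 was at 3515 CPM in G1 and 2381 in G2M in shScr day 3, at 3390 and 1821 in shAPC day 3, at 2494 and 1130 in shScr day 7, and at 3326 and 1603 in shAPC day 7. S cells lay between them in every library, although thinned to 2000 UMIs those of shScr day 7 were at 925 CPM, under G2M. Thinned, the order of G1 and G2M was the same, with 3364 and 2179, 3447 and 1339, 2586 and 1096, and 3290 and 1338 CPM. The day 7 gap between the shRNAs was present within both phases.

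MALAT1 and MEG3 were also lower in G2M than in G1 in each library. MALAT1 was at 9596 against 12233 CPM in shScr day 3, 7484 against 12062 in shAPC day 3, 9422 against 11000 in shScr day 7 and 11200 against 14126 in shAPC day 7. Thinned, MALAT1 in shAPC day 7 was at 14136 in G2M and 14062 in G1, so that library's difference did not remain. MEG3 was at 215 to 286 CPM in G2M and 302 to 483 in G1. KCNQ1OT1 in shAPC day 7 was at 60.5 CPM (57.4 to 63.8) in G1 and 37.5 (30.6 to 45.4) in G2M, and in the other libraries its G1 and G2M intervals overlapped. Phase calls read free RNA too, and the part of that in these levels was not tested.

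**Figure D4:**
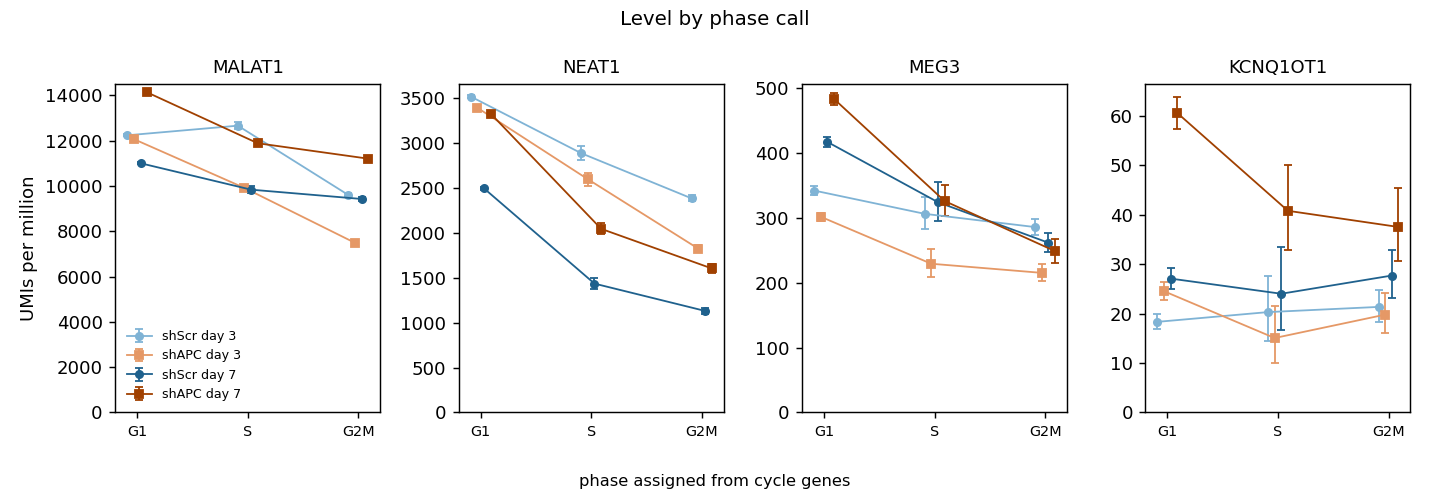
CPM in cells assigned G1, S or G2M, for each RNA and library, with exact 95% counting intervals. NEAT1, not thinned, steps down from G1 to S to G2M in all 4 libraries, from 2494 to 3515 CPM in G1 to 1130 to 2381 CPM in G2M.

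Across cells the nuclear RNAs varied together. Over cells thinned to 2000 UMIs, 673 to 1198 per library, the correlation of MALAT1 with NEAT1 on log values was 0.61, 0.69, 0.51 and 0.62 in the 4 libraries in the order above. Of 3821 genes it was the most like for both, by mean correlation over the libraries (0.61), where the median gene was near 0. Next for MALAT1 came FN1 (fibronectin, 0.40), MEG3 (0.39), COL1A1 (a collagen chain, 0.34) and MT-CO3 (0.31), and for NEAT1 FN1 (0.51), MT-CO2 (0.44), COL1A1 (0.38) and MT-ND4 (0.38). For MEG3 the list was MALAT1 (0.39), NEAT1 (0.36), COL1A1 (0.25), MEG8 (0.22) and FN1 (0.21). MEG8 is transcribed from the same imprinted domain as MEG3. KCNQ1OT1 was under the level set for such a list. Cells of a library share its preparation, and the points also share depth, with which NEAT1 correlated at 0.31 to 0.51, and mitochondrial share, with which it correlated at 0.33 to 0.54.

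The summed mRNAs of speckle and paraspeckle proteins gave correlations near 0 with the RNAs in the same cells. MALAT1 against 21 nuclear speckle genes gave correlations of 0.05 to 0.13, and NEAT1 against the paraspeckle genes gave -0.13 to -0.03. Between libraries, none of the 21 speckle genes tested at day 3 and of the 20 tested at day 7 differed 2-fold between the shRNAs, beside 4.29% and 2.56% of all genes. Their median log2 ratio was 0.50 at day 3 and -0.06 at day 7, beside medians over all genes of 0.28 and -0.10. SRSF3, a splicing factor and the most counted of them, was at 124 and 202 CPM at day 3 and at 164 and 118 at day 7 in shScr and shAPC. SON and SRRM2, which organise the speckle, had log2 ratios of 0.63 and 0.57 at day 3. Of 21 and 19 paraspeckle genes tested none was 2-fold different, with medians of 0.31 and -0.04. HNRNPA1 and HNRNPK, both RNA-binding proteins of this list, had log2 ratios of -0.31 and 0.43 at day 3, then -0.13 and -0.04 in the day 7 libraries.

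Of the imprinted genes taken here as neighbours, KCNQ1, CDKN1C and DLK1 were absent or low, whereas MEG8 was not. These named genes do not stand for all imprinted genes near the RNAs. KCNQ1, the gene on the opposite strand to KCNQ1OT1, had 0 UMIs in both shScr libraries, which allows up to 0.0754 and 0.0961 CPM, and 5 and 2 UMIs in shAPC at day 3 and day 7. The strand setting of the counting was not given in the sources used here, so reads of this pair could in principle be exchanged, but next to 758 to 1633 UMIs of KCNQ1OT1 those of KCNQ1 were few. CDKN1C was at 0.829 CPM in shScr day 3, 1.09 in shAPC day 3, 1.12 in shScr day 7 and 4.18 in shAPC day 7, from 33, 38, 35 and 119 UMIs. It was highest in the library where KCNQ1OT1 was highest, with a log2 ratio of shAPC to shScr at day 7 of 1.90 (1.35 to 2.49), and at under 20 CPM it was below the level set for calls.

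In the DLK1-DIO3 domain DLK1 had no UMI in any library, which allows up to 0.105 CPM in the shallowest, and MEG8 had 41.6 CPM in shScr day 3, 40.4 in shAPC day 3, 44.99 in shScr day 7 and 62.2 in shAPC day 7. The MEG8 log2 ratio of shAPC to shScr was -0.04 (-0.15 to 0.06) on the earlier day and 0.47 (0.36 to 0.57) on the later, beside -0.20 and 0.22 for MEG3. Of the imprinted genes, 8 were tested at day 3 and 9 at day 7 and none was called, beside 4.29% and 2.56% of all genes. The median log2 ratios of the imprinted genes were 0.12 and 0.04. GNAS and PHLDA2, which encode a G protein subunit and a growth-restraining placental protein, had the most UMIs among them, at 206 to 226 and 114 to 180 CPM. IGF2 was not analysed here.

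Among other long noncoding RNAs, 1 of 5 tested at day 7 was called between the shRNAs and 0 of 6 at day 3. Of all genes, 2.56% were called at day 7 and 4.29% at day 3, and lists this short say little beside such shares. FENDRR, a mesodermal long noncoding RNA, was the one called, at 9.67 CPM in shScr day 3, 20.1 in shAPC day 3, 9.25 in shScr day 7 and 28.8 in shAPC day 7. Its log2 ratio was 1.06 (0.88 to 1.24) at day 3, which fell short of a call once the pseudocount was added, and 1.64 (1.44 to 1.83) at day 7. CYTOR, MIR4435-2HG and NORAD had the most UMIs of this list, at 301 to 400, 253 to 311 and 88.7 to 121 CPM, and were not called. CYTOR and MIR4435-2HG are near-identical copies, so their counts are uncertain.

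Interferon and mesenchymal genes were set beside these RNAs. Of 18 interferon-stimulated genes tested at day 3, 16 were at least 2-fold higher with shAPC, while 4.29% of all genes and none of the 4 RNAs were called. At day 7, when 2.56% of all genes were called, 3 of 7 were at least 2-fold lower with shAPC. Among these 3 was ISG15, an interferon-induced ubiquitin-like protein, at 143 against 313 CPM. Of 6 mesenchymal markers none was called at day 3 and 1 at day 7, where their median log2 ratio was 0.01. It was COL1A2, a collagen chain, at 1118 CPM in shAPC and 492 in shScr. Both shScr libraries were written by Cell Ranger 3.0.2 and both shAPC libraries by 3.0.0, so the version and the shRNA cannot be told apart.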

How the data were processed

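The authors aligned the reads to GRCh38 with Cell Ranger, which uses STAR, and deposited raw UMI counts per gene and cell barcode for each library. Per the file headers Cell Ranger 3.0.2 wrote the shScr matrices and 3.0.0 the shAPC matrices. The kit is v2 in the labels and V3 in the methods. The ComBat and imputation steps of the study were not applied, and doublets were not removed. The RNAs and the gene lists were chosen with earlier results of these data known.

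Kept barcodes had 200 or more genes, 500 or more UMIs and a mitochondrial share under 5%. Counts were summed per library and scaled to CPM over all kept UMIs (28451455 to 39797418 per library). CPM carry exact Poisson intervals, ratios exact conditional binomial intervals and shares exact Clopper-Pearson intervals. Genes were called at 2-fold on log2(CPM + 1) among those with at least 20 CPM in 1 of the 2 libraries, which understates the difference of low genes. The text names the RNAs, the 5 genes most like each in correlation over cells, listed neighbours, the 3 most counted genes of a list as far as they bear on the results, and list genes called between the shRNAs, of which the interferon genes are given as counts. Phases were scored with scanpy 1.11.5 and the gene sets of Seurat 5.3.0. Scaling factors came from edgeR 4.0.16 and DESeq2 1.42.0. The script was tested on simulated data. Alternatives covered scaling, totals, cell limits, pseudocount and level minimum. Cells by depth range, thinned cells, removed barcodes and cells rich in MALAT1 were added after seeing the data.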

Additional observations from a re-analysis of the deposited data

Results flagged for a closer look

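For 3 of the RNAs the ratio of shAPC to shScr lay below 0 at day 3 and above 0 at day 7, each with a counting interval that leaves out 0. Such intervals do not cover the spread over cells. The difference of the log2 ratios, day 7 minus day 3, was 0.39 for MALAT1, 0.53 for NEAT1 and 0.42 for MEG3. The difference was not tested, since each group is 1 library. In cells thinned to 2000 UMIs the day 7 ratio was below 0 for MALAT1 (-0.17) and MEG3 (-0.31), so the change of sign was not seen there. For NEAT1 the day 3 ratio was within 0.10 of 0 with scaling by total UMIs. It changed sign under some settings and was -0.43 with TMM scaling.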

How the results depend on the processing

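With 1 library per group, leaving out a replicate was not possible. No paired analysis was possible because each group holds 1 library. Depth limits KCNQ1OT1 most, at 758 to 1633 UMIs per library. Of 256 alternative log2 ratios of the 4 RNAs, 97 stayed within the counting interval of the value given, 136 moved beyond it and 23 changed sign. At day 7 the KCNQ1OT1 ratio between the shRNAs was above 0 under all 16 alternatives (0.057 to 1.36), that of NEAT1 under 15 and those of MALAT1 and MEG3 under 14. The causes of the differences below were not tested.

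In cells of 2000 to 10000 UMIs the day 7 ratio changed sign to -1.49 for MALAT1, -0.60 for NEAT1 and -1.21 for MEG3, and the day 3 ratio to -0.91 for KCNQ1OT1. In cells thinned to 2000 UMIs the day 7 ratio changed to -0.17 for MALAT1 and -0.31 for MEG3, and MALAT1 between the days in shScr to 0.047. The NEAT1 ratio at day 3 changed sign to 0.040 without the 5% deepest cells, 0.062 with a mean over cells and 0.091 in removed barcodes. That of KCNQ1OT1 at day 3 changed to -0.081 with TMM, -0.064 with DESeq2 size factors and -3.84 in cells of 10000 to 30000 UMIs. Between the days in shScr, MALAT1 changed to 0.29 in cells of 10000 to 30000 UMIs and KCNQ1OT1 to -0.23 in removed barcodes. Between the days in shAPC, NEAT1 changed to 0.28 with TMM, 0.28 with DESeq2 size factors, 0.15 without mitochondrial and ribosomal protein genes in the total, 0.17 with all barcodes, 0.16 with a limit of 10%, 0.056 with a mean over cells, 2.54 in cells of 10000 to 30000 UMIs and 0.16 in removed barcodes.

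The number of the 4 RNAs called was 3 in place of 0 at day 3 in cells of 10000 to 30000 UMIs and 1 in those of 2000 to 10000, 2 in place of 1 at day 7 in the latter, and 0 in place of 1 at day 7 in cells of over 30000 UMIs and with a pseudocount of 5 CPM. Between the days in shAPC it was 0 in place of 1 in cells of over 30000 UMIs, in removed barcodes and in thinned cells, and 4 in cells of 10000 to 30000 UMIs. Of all genes 222 were called at day 3, against 144 with DESeq2 size factors, 127 without the 5% deepest cells, 465 in cells of 10000 to 30000 UMIs, 710 in cells of 2000 to 10000 UMIs, 144 in removed barcodes, 42 at a minimum of 100 CPM and 528 at 4 UMIs. At day 7, 117 were called, against 258 with a mean over cells, 77 in cells of over 30000 UMIs, 193 in cells of 10000 to 30000 UMIs, 505 in cells of 2000 to 10000 UMIs, 178 in thinned cells, 230 in removed barcodes, 34 at 100 CPM and 299 at 4 UMIs. Between the days in shScr 51 were called, against 173 with a mean over cells, 381 in cells of 2000 to 10000 UMIs, 105 in thinned cells, 134 in removed barcodes, 20 at 100 CPM and 115 at 4 UMIs. In shAPC 302 were called, against 154 with TMM, 154 with DESeq2 size factors, 198 without the 5% deepest cells, 919 in cells of 10000 to 30000 UMIs, 822 in cells of 2000 to 10000 UMIs, 69 at 100 CPM and 603 at 4 UMIs.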
